A study of Mus musculus with 12 samples.

Results

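The CCN family of matricellular genes was followed in TM3 cells, an established line of mouse Leydig cells from immature testis, during exposure to methoxyacetic acid (MAA), the active metabolite of the industrial solvent ethylene glycol monomethyl ether. Its members here were Cyr61 (now Ccn1), Ctgf (Ccn2), Nov (Ccn3), Wisp1 (Ccn4) and Wisp2 (Ccn5), 5 of the 15972 genes that could be named on the array. The name column of the scanner output held accessions and matched the member names at 0 probes, so the members were found by RefSeq accession and former symbol, and each had 1 probe with 1 spot among the 41174 probes. Treated cells were exposed to MAA in their medium at 5 mM or at 1 mM, each during 3, 8 and 24 h, and the controls were TM3 cells of the same age in culture that got medium without MAA. Each of the 6 treatments was compared with its control on 2 two-colour Agilent arrays, 12 in all, in opposite dye orientations, so that RNA of treated cells was green on replicate 1 and red on replicate 2. Each RNA was a pool of 3 cultures, and the 1 mM and 5 mM arrays of a time may share control cultures. TM3 is a single line grown without testicular neighbours, so a value is a mean over whole cultures, in which fewer cells with a transcript and less of it per cell cannot be told apart.

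CCN proteins are secreted into the extracellular matrix, where they act less as structural parts than as signals. They are built from an insulin-like growth factor binding domain, a von Willebrand factor type C domain, a thrombospondin type 1 repeat and a carboxy-terminal cystine knot, the last of which Wisp2 lacks, and they bind integrins, heparan sulfate proteoglycans and growth factors. Cyr61 and Ctgf are known as immediate early genes that respond to serum, to transforming growth factor beta and to the YAP and TEAD transcription factors, whereas Wisp1 and Wisp2 were named as genes induced by WNT1.

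The RefSeq promoter table of GRCm38.p6 matched 1 of the 5 members, Cyr61. Its gene lies on the minus strand at chr3:145646971-145649985, and the 250 bases before its start, chr3:145649986-145650235, are shown 5′ to 3′.

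Cyr61: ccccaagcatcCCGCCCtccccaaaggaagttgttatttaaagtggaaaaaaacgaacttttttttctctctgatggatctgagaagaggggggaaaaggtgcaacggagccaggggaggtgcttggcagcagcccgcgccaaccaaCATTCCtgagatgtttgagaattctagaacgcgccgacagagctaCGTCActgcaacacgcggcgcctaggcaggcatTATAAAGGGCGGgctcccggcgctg

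Capitals mark matches on either strand to CATTCC (the TEAD motif), CGTCA (the cyclic AMP response half-site), GGGCGG (the GC box) and TATAAA (the TATA box). CATTCC lay 103 to 98 bases and CGTCA 58 to 54 bases before the start. TATAAA, at 25 to 20 bases, ran directly into GGGCGG at 19 to 14 bases, and a GC box on the opposite strand lay at 239 to 234 bases. Of 32851 promoters of this length, 12.6% held CATTCC, 17.8% CGTCA, 32.7% GGGCGG and 12.4% TATAAA, so each of these matches is common.

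Across the arrays, 62.2% to 69.3% of probes were well above background in the MAA channel and 61.6% to 70.6% in the control channel. Over all probes, the log2 ratios of replicates 1 and 2 correlated at 0.496 to 0.644 for 5 mM MAA, at 0.133 and 0.309 for 8 and 24 h of 1 mM, and at -0.134 for 3 h of 1 mM. The median log2 ratio of all probes lay between -0.10 and 0.03. Among Leydig cell markers, Star, Cyp17a1, Insl3 and Gata4 were well above background in all 12 control channels, and Cyp11a1, Hsd3b1, Hsd3b6 and Lhcgr in 0. Of markers of other testicular cells, 5 of 8 for Sertoli cells, 3 of 6 for germ cells, 4 of 6 for peritubular myoid cells, 1 of 6 for endothelial cells and 0 of 3 for macrophages were well above background in all 12. Of the 8 Sertoli markers, 2, 2 and 3 were called up (by the rule given below for the members) at 3, 8 and 24 h of MAA at either concentration, and of the peritubular markers 1 and 1 were called up at 8 and 24 h of 5 mM and 1 and 2 at 1 mM. Of the endothelial markers 1 and 2 were called up at 8 and 24 h of 5 mM and 1 and 1 at 3 and 24 h of 1 mM, and of the macrophage markers 1 and 2 at 8 and 24 h of 5 mM and 1 at 24 h of 1 mM. Of the Leydig markers 1 was called up and 1 down at 24 h of 5 mM, and 0 germ cell markers were called at any treatment. Among these calls, Dhh at 3 h of 1 mM and Cdh5 at 24 h of 5 mM were not well above background in either channel. The shares of all probes called are given with the members' counts. The part of these genes' cell types in the results was not tested.

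Of the 5 CCN genes, 4 responded to MAA, in different directions and at different times, and Nov could not be measured. Ctgf rose at all 3 times of 5 mM MAA, Cyr61 rose at 3 and 8 h, Wisp1 fell at 3 and 8 h, and Wisp2 rose at 24 h. The rule for a call was an unadjusted limma p under 0.005 together with a fold above a minimum, which was 2 for 5 mM and 1.5 for 1 mM. At 3 h of 5 mM MAA, 2 of 5 members were called up and 1 down, where 2.02% of all probes were called up and 1.74% down. The same counts held at 8 h, beside 3.06% of probes up and 2.49% down. At 24 h, 2 members were called up and 0 down, beside 3.85% and 1.77%. At 1 mM, 0 members were called at 3 h in either direction (1.32% of probes up, 0.627% down), although limma's p was under 0.05 for Cyr61 (0.0334), Ctgf (0.00355) and Wisp1 (0.000199). At 8 h of 1 mM, 2 members were called up (1.72% of probes) and 0 down (0.656%), and at 24 h again 2 were up (3.26%) and 0 down (1.41%). Adjusting p over all probes, with a threshold of 0.05 and the same folds, gave the same members at every treatment.

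**Figure D1:**
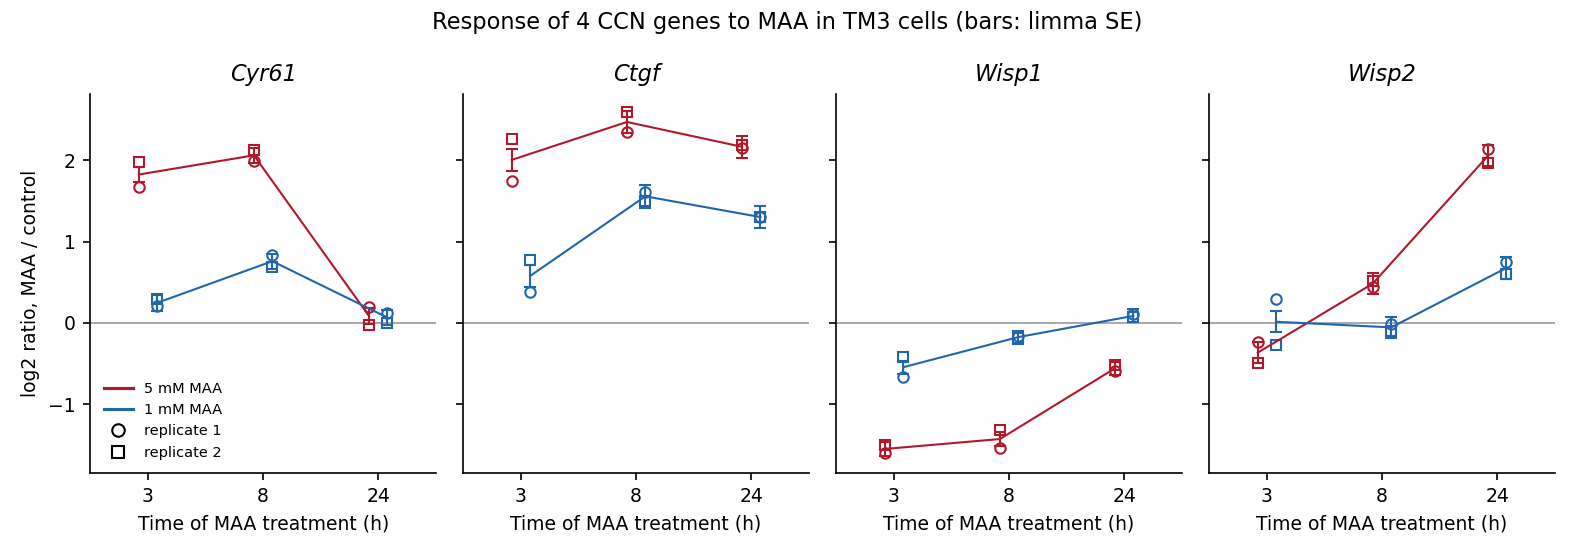
Log2 ratio of MAA-treated to control signal (vertical axis) of Cyr61, Ctgf, Wisp1 and Wisp2 at 3, 8 and 24 h (horizontal axis), with 5 mM in red and 1 mM in blue; open symbols are single arrays, lines join the means of 2 arrays and bars are limma standard errors. Ctgf stays high to 24 h at both concentrations, Cyr61 is near 0 by then, Wisp1 lies below 0 at 5 mM and Wisp2 is highest at 24 h.

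Ctgf, which encodes connective tissue growth factor, was called at all 3 times of 5 mM MAA. There its log2 ratios were 1.75 and 2.27 on the arrays of 3 h, 2.35 and 2.59 at 8 h, and 2.15 and 2.19 at 24 h. The means were 4.02-fold, 5.55-fold and 4.49-fold above control (log2 standard error 0.14 at each treatment, n = 2 arrays, adjusted p by limma 7.48e-05, 2.43e-05 and 4.64e-05). At 8 h of 5 mM, 0.33% of all probes had a larger change in either direction. At 1 mM the log2 ratios were 0.38 and 0.78 at 3 h, 1.61 and 1.505 at 8 h, and 1.30 and 1.31 at 24 h. Those of 8 and 24 h were called, at 2.94-fold and 2.46-fold (adjusted p by limma 0.00232 and 0.00184), and at 8 h 0.24% of all probes had larger changes. The mean of 3 h, 1.49-fold, was just under the fold threshold. Without replicate 1 of that treatment, the 1 array left had a log2 ratio of 0.78, past that threshold. All 6 arrays of 5 mM lay above all 6 arrays of 1 mM.

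Cyr61, which encodes a cysteine-rich angiogenic inducer, responded early and then met its control. At 5 mM its log2 ratios were 1.68 and 1.97 at 3 h, 1.99 and 2.13 at 8 h, and 0.19 and -0.02 at 24 h. The increases at 3 and 8 h were 3.54-fold and 4.17-fold (log2 standard error 0.09, n = 2, adjusted p by limma 2.87e-05 and 1.32e-05), and at 24 h the ratio was 1.06-fold (adjusted p 0.635). At 1 mM the log2 ratios were 0.20 and 0.29 at 3 h, 0.83 and 0.68 at 8 h, and 0.13 and 0.00 at 24 h, of which the mean of 8 h, 1.69-fold, was called (adjusted p by limma 0.00703). Both arrays of each concentration lay above 0.6 at 8 h, and at 24 h all 4 lay between -0.02 and 0.19.

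Wisp1, a growth factor gene known from fibroblasts and bone, was the member that fell. At 5 mM its log2 ratios were -1.61 and -1.499 at 3 h, -1.54 and -1.32 at 8 h, and -0.60 and -0.52 at 24 h. These were decreases of 2.94-fold and 2.70-fold at 3 and 8 h (log2 standard error 0.08, n = 2, adjusted p by limma 2.93e-05 and 2.52e-05). The decrease of 1.47-fold at 24 h had an adjusted p of 0.00162 by limma but was under the fold threshold. At 1 mM the log2 ratios were -0.67 and -0.43 at 3 h, -0.16 and -0.19 at 8 h, and 0.10 and 0.07 at 24 h. The decrease of 1.46-fold at 3 h had an adjusted p of 0.0131 by limma and was not called. Without replicate 2 of that treatment, the 1 array left had a log2 ratio of -0.67, past the fold threshold. All 6 arrays of 5 mM lay below 0, and only the arrays of 24 h of 1 mM lay above it.

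Wisp2, whose protein lacks the cystine knot, responded late. At 5 mM its log2 ratios were -0.24 and -0.49 at 3 h, 0.45 and 0.52 at 8 h, and 2.14 and 1.97 at 24 h. The increase at 24 h was 4.16-fold (log2 standard error 0.13, n = 2, adjusted p by limma 4.66e-05), and the means of 3 and 8 h, 0.78-fold and 1.40-fold of control, were not called. At 1 mM the log2 ratios were 0.29 and -0.27 at 3 h, -0.01 and -0.10 at 8 h, and 0.75 and 0.60 at 24 h. The 24 h increase of 1.60-fold was called (adjusted p by limma 0.0181). Leaving out either array of that treatment ended the call, with log2 ratios of 0.60 without replicate 1 and 0.75 without replicate 2. With normexp background correction and loess its 24 h log2 ratios were 1.33 at 5 mM, still called, and 0.22 at 1 mM, not called.

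Nov was not well above background in any of the 24 channels, so no fold is given for it. Its scaled signal lay between 2.10 and 2.82 in the control channels and between 2.17 and 4.05 in the MAA channels. The other 4 members were well above background in all 24 channels, and 0 of these were saturated.

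The levels behind these ratios moved with time in culture as well as with MAA. The single channels were put on 1 scale by Aquantile normalization, and untreated cells were compared between times over 6 values, the mean of the control channels of each time and replicate number. Probes that passed an adjusted p of 0.05 made up 13% of all probes for 8 h minus 3 h, 31.5% for 24 h minus 3 h and 14% for 24 h minus 8 h, and 3, 2 and 2 of the 5 members passed.

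**Figure D2:**
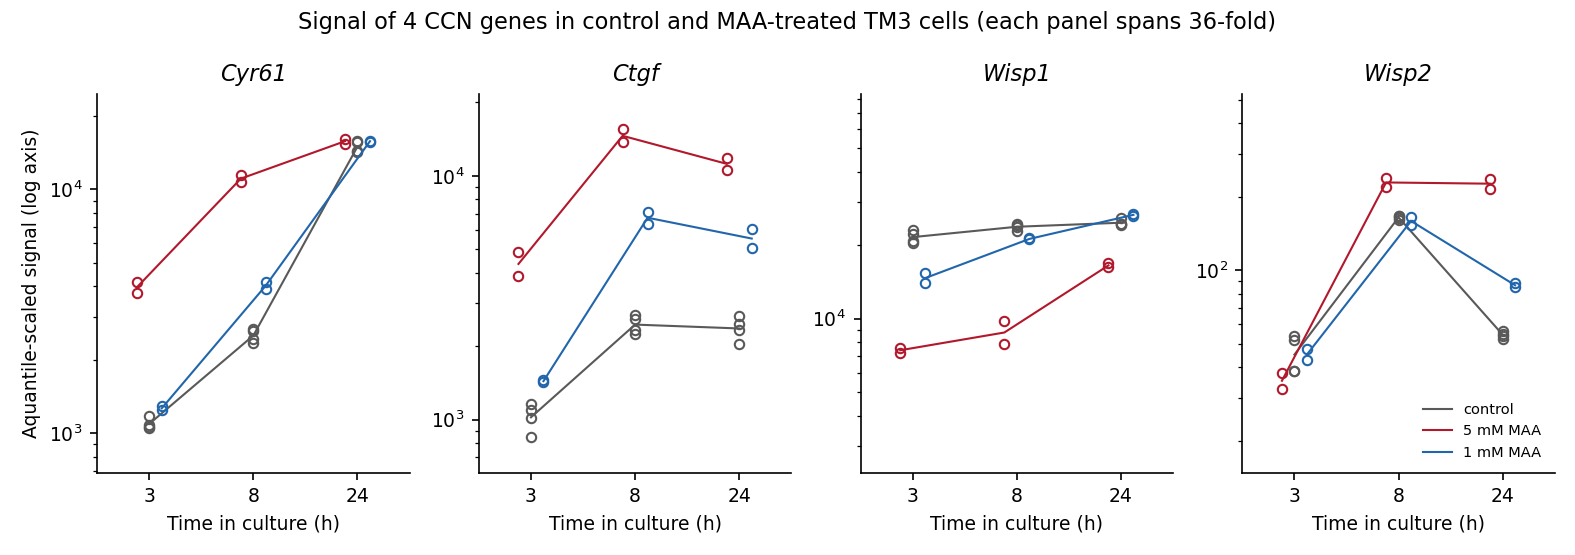
Aquantile-scaled signal on a log axis (vertical) of Cyr61, Ctgf, Wisp1 and Wisp2 in control cells (grey, 4 channels per time) and in cells with 5 mM (red) or 1 mM MAA (blue, 2 channels each) at 3, 8 and 24 h (horizontal axis); points are single channels, lines join geometric means, and each panel has its own range of the same width. Cyr61 of control cells climbs to the MAA level by 24 h, Ctgf stays apart, Wisp1 of control cells is nearly level and Wisp2 of control cells peaks at 8 h.

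Untreated Cyr61 climbed steeply. Its control signals were 1052, 1059, 1079 and 1179 at 3 h, 2341, 2428, 2623 and 2683 at 8 h, and 14180, 14400, 15630 and 15790 at 24 h, with no overlap between times. Untreated cells held 2.31-fold more at 8 h than at 3 h and 5.96-fold more at 24 h than at 8 h (adjusted p by limma 0.0276 and 0.0214). With 5 mM MAA the signals were 3768 and 4162 at 3 h, 10680 and 11480 at 8 h, and 16160 and 15380 at 24 h. Both signals of 8 h at 5 mM were below all 4 control signals of 24 h, and the 24 h signals of the treated and control cells overlapped.

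Untreated Ctgf rose early and then held. Its control signals were 848, 1015, 1096 and 1156 at 3 h, 2238, 2339, 2574 and 2687 at 8 h, and 2049, 2328, 2456 and 2670 at 24 h. The increase from 3 to 8 h was 2.40-fold (adjusted p by limma 0.0269), and 24 h differed from 8 h by -0.05 on the log2 scale (adjusted p 0.749). With 5 mM MAA the signals were 3878 and 4881 at 3 h, 13720 and 15530 at 8 h, and 11840 and 10590 at 24 h, above every control channel of the same time. With 1 mM they were 1423 and 1453, 7138 and 6350, and 6037 and 5065 at the same times, and these too lay above every control channel of their time.

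Untreated Wisp1 showed no change past the threshold. Its control signals ran from 20490 to 23170 at 3 h, from 22890 to 24480 at 8 h and from 24250 to 25790 at 24 h, and the log2 difference of 24 h minus 3 h was 0.20 (adjusted p by limma 0.179). With 5 mM MAA the signals were 7606 and 7246 at 3 h, 7865 and 9799 at 8 h, and 16230 and 16880 at 24 h, each below every control channel of the same time. With 1 mM they were 13950 and 15450 at 3 h, 21140 and 21360 at 8 h, and 26360 and 27020 at 24 h, the last above all 4 controls.

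Untreated Wisp2 peaked at 8 h. Its control signals were 38.5, 38.6, 51.7 and 53.5 at 3 h, 160.5, 164.4, 166.3 and 167.2 at 8 h, and 52.4, 53.9, 54.9 and 56.2 at 24 h. It rose 3.66-fold from 3 to 8 h and fell 3.03-fold from 8 to 24 h (adjusted p by limma 0.0281 and 0.0243). With 5 mM MAA it was 32.6 and 37.9 at 3 h, 218.6 and 239.8 at 8 h, and 237.6 and 215.5 at 24 h, so that the treated signals of 8 and 24 h overlapped while those of the controls did not. With 1 mM it was 88.4 and 85.0 at 24 h, above all 4 control channels. These comparisons of untreated cells rest on 2 residual degrees of freedom. The calls of members for 8 h or 24 h minus 3 h were lost without either value of 3 h or of 24 h. That of Wisp2 was also lost without either value of 8 h. A member was counted here if it passed for 8 h minus 3 h or for 24 h minus 3 h. Whether Cyr61 and Ctgf kept their calls for 8 h minus 3 h without a value of 8 h is therefore not shown. The count leaves out 24 h minus 8 h. The values of that difference were refitted in the same way, and whether its calls of Cyr61 and Wisp2 held is not given here.

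Whether the response differed between concentrations was tested as the difference of the log2 ratios at 5 mM and 1 mM, with adjusted p under 0.05. Of the 5 members, 3 passed at each time: Cyr61, Ctgf and Wisp1 at 3 and 8 h, and Ctgf, Wisp1 and Wisp2 at 24 h. The share of all probes that passed was 3.4% at 3 h, 10.1% at 8 h and 8.41% at 24 h. The response of Cyr61 was larger at 5 mM by 1.58 at 3 h and 1.30 at 8 h (adjusted p by limma 0.00506 and 0.00245). At 24 h its difference was 0.02, with a 95% interval from -0.29 to 0.33. That of Ctgf was larger by 1.43, 0.92 and 0.87 at 3, 8 and 24 h (adjusted p 0.0153, 0.0272 and 0.0371). Wisp1 was lower at 5 mM, with differences of -1.01, -1.25 and -0.65 (adjusted p 0.00938, 0.00178 and 0.0163). Wisp2 was higher by 1.38 at 24 h (adjusted p 0.00605), and its differences at 3 and 8 h, -0.38 and 0.54, had 95% intervals from -0.81 to 0.05 and from 0.11 to 0.97 and adjusted p of 0.402 and 0.124. On the slides that held both concentrations, the differences were 1.47 at 3 h and 1.16 and 1.45 at 8 h and 0.06 at 24 h for Cyr61, 1.37, 0.74, 1.09 and 0.85 at 3, 8, 8 and 24 h for Ctgf, -0.94, -1.38, -1.13 and -0.70 for Wisp1, and -0.54 at 3 h, 0.46 and 0.62 at 8 h and 1.39 at 24 h for Wisp2. The 8 h difference of Wisp2 passed with slide as a random block (adjusted p by limma 0.0307) and with normexp and loess (0.0198). The adjusted p of some of these rests on single arrays: without replicate 2 of 1 mM 3 h, or of 5 mM 3 h, 1 member passed at 3 h, in both cases Cyr61. At 24 h, 0 passed without replicate 2 of 1 mM and 1, Wisp2, without replicate 1 of 1 mM or either replicate of 5 mM. The difference of Ctgf was lost at 8 h without any 1 array of 8 or 24 h, at 24 h without any 1 of the same arrays, and at 3 h also without replicate 1 of 1 mM 3 h.

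The response changed with time in a different way for each member. For 5 mM MAA, 1, 3 and 3 of the 5 members passed for 8 h minus 3 h, 24 h minus 8 h and 24 h minus 3 h, beside 5.1%, 8.91% and 15.8% of all probes. The log2 ratio of Cyr61 fell by 1.98 from 8 to 24 h and by 1.74 from 3 to 24 h (adjusted p by limma 0.000946 and 0.000489). That of Wisp1 rose towards 0 by 0.87 from 8 to 24 h and by 0.99 from 3 to 24 h (adjusted p 0.00562 and 0.00194). That of Wisp2 rose by 0.85 from 3 to 8 h, by 1.57 from 8 to 24 h and by 2.42 from 3 to 24 h (adjusted p 0.0452, 0.00397 and 0.000484). No difference between times passed for Ctgf at 5 mM: the 95% interval of 24 h minus 3 h ran from -0.29 to 0.62, that of 24 h minus 8 h from -0.76 to 0.15 and that of 8 h minus 3 h from 0.01 to 0.92. Ordered by their 5 mM log2 ratios, the times ran 8, 24 and 3 h for Ctgf, with no neighbours told apart, and 8, 3 and 24 h for Cyr61, with 24 h told apart from both.

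For 1 mM MAA, 0 members passed for 8 h minus 3 h, where 0 probes passed (0%) and 3538 had an unadjusted limma p under 0.05. For 24 h minus 8 h 0 members passed, beside 0.576% of probes, and the value nearest the threshold was that of Cyr61, -0.69 (adjusted p by limma 0.0835). For 24 h minus 3 h, beside 1.85% of probes, 1 member passed: the log2 ratio of Wisp1 rose by 0.63 (adjusted p by limma 0.0449). With slide as a random block 3 members passed here, Ctgf and Wisp2 beside Wisp1, and Cyr61 passed for 24 h minus 8 h. On the slides that held both times, the differences of 24 h minus 3 h were 0.77 and 0.49 for Wisp1, 0.92 and 0.53 for Ctgf, 0.46 and 0.86 for Wisp2, and -0.08 and -0.29 for Cyr61. The call of Wisp1 was lost when any 1 of the 12 arrays was left out, with differences from 0.51 to 0.75, and the call of Wisp2 for 8 h minus 3 h at 5 mM was lost without any 1 of the arrays other than those of 1 mM 3 h. On the slides that held the times compared, the 5 mM differences of 24 h minus 3 h were -1.49 and -2.00 for Cyr61, 1.01 and 0.98 for Wisp1, and 2.38 and 2.47 for Wisp2, those of 24 h minus 8 h were -2.15, 0.80 and 1.45 for the same genes, and that of 8 h minus 3 h was 1.02 for Wisp2. For Ctgf the corresponding values were 0.40 and -0.08, then -0.41, then 0.33, and for 8 h minus 3 h they were 0.16 for Cyr61 and 0.18 for Wisp1.

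The log2 ratios of Cyr61 and Wisp1 ran opposite to each other over the 12 arrays (Pearson r -0.85), and those of Cyr61 and Ctgf ran together (r 0.61). The remaining pairs of the 4 measured members had r between -0.54 and 0.30. These are descriptions over arrays that share dyes, slides and possibly controls. The genes most like each member by the same measure were sought among 15036 named probes well above background.

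**Figure D3:**
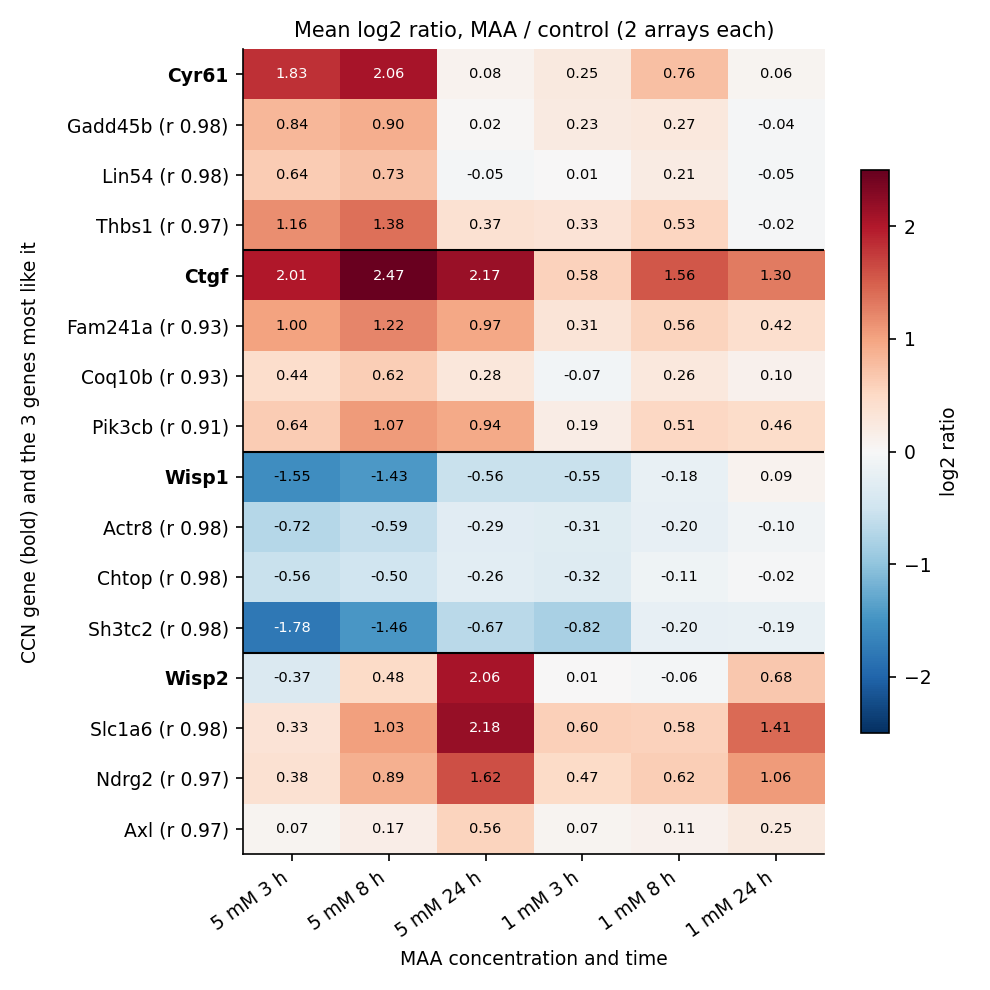
Mean log2 ratio of MAA-treated to control signal (colour and printed value, 2 arrays each) at the 6 treatments (horizontal axis) for the 4 measured CCN genes in bold and, below each, the 3 genes with the highest Pearson correlation to it over the 12 arrays. Sh3tc2 falls as Wisp1 does, and Slc1a6 and Ndrg2 rise most at 24 h as Wisp2 does.

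Nearest to Cyr61 were Gadd45b, a stress-inducible regulator of growth arrest (r 0.98), Lin54, a DNA-binding subunit of the DREAM complex (r 0.98), and Thbs1, which encodes the matricellular protein thrombospondin 1 (r 0.97). Thbs1 shares the thrombospondin type 1 repeat with the CCN family, and it rose 2.23-fold at 3 h and 2.61-fold at 8 h of 5 mM MAA, with a log2 ratio of 0.37 at 24 h that was not called. Nearest to Ctgf were Fam241a, which rose 2.01-fold and 2.33-fold at 3 and 8 h of 5 mM (r 0.93), Coq10b, which serves coenzyme Q function (r 0.93), and Pik3cb, a catalytic subunit of phosphoinositide 3-kinase (r 0.91). Nearest to Wisp1 were Actr8, a subunit of the INO80 chromatin remodeller, Chtop, which takes part in mRNA export, and Sh3tc2, a protein of endosomal recycling (each r 0.98). Of these, Sh3tc2 fell 3.43-fold at 3 h and 2.75-fold at 8 h of 5 mM and 1.76-fold at 3 h of 1 mM MAA. Nearest to Wisp2 were Slc1a6, a glutamate transporter (r 0.98), Ndrg2 (r 0.97) and Axl, a receptor tyrosine kinase (r 0.97). Slc1a6 rose 4.53-fold and Ndrg2 3.08-fold at 24 h of 5 mM, and at 24 h of 1 mM they rose 2.66-fold and 2.08-fold, while Axl had a log2 ratio of 0.56 at 24 h of 5 mM that was not called.

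Genes tied to the family by binding, regulation or structure were counted in 7 lists without the members, with 1 probe for each gene. Among 14 receptors and binding partners of CCN proteins, 1 was called up at 3 h of 5 mM MAA, 1 up and 1 down at 8 h, and 1 up at 24 h, and the list's median log2 ratio was 0.10, 0.07 and 0.23 beside -0.10, -0.04 and 0.03 for all probes. Notch1, a receptor that binds Nov, rose 3.37-fold at 3 h and 2.10-fold at 8 h of 5 mM and 1.90-fold at 3 h of 1 mM. Itga6, an integrin subunit through which Cyr61 and Ctgf act on fibroblasts, rose 2.22-fold at 24 h, and Itgb2, a leukocyte integrin subunit, fell 2.04-fold at 8 h. The other receptors of the list were not called at 5 mM. Their log2 ratios ran from -0.68, for the integrin subunit Itga2b at 3 h (adjusted p by limma 0.00301), to 0.50, for the integrin subunit Itga5 at 3 h (adjusted p by limma 0.00164).

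**Figure D4:**
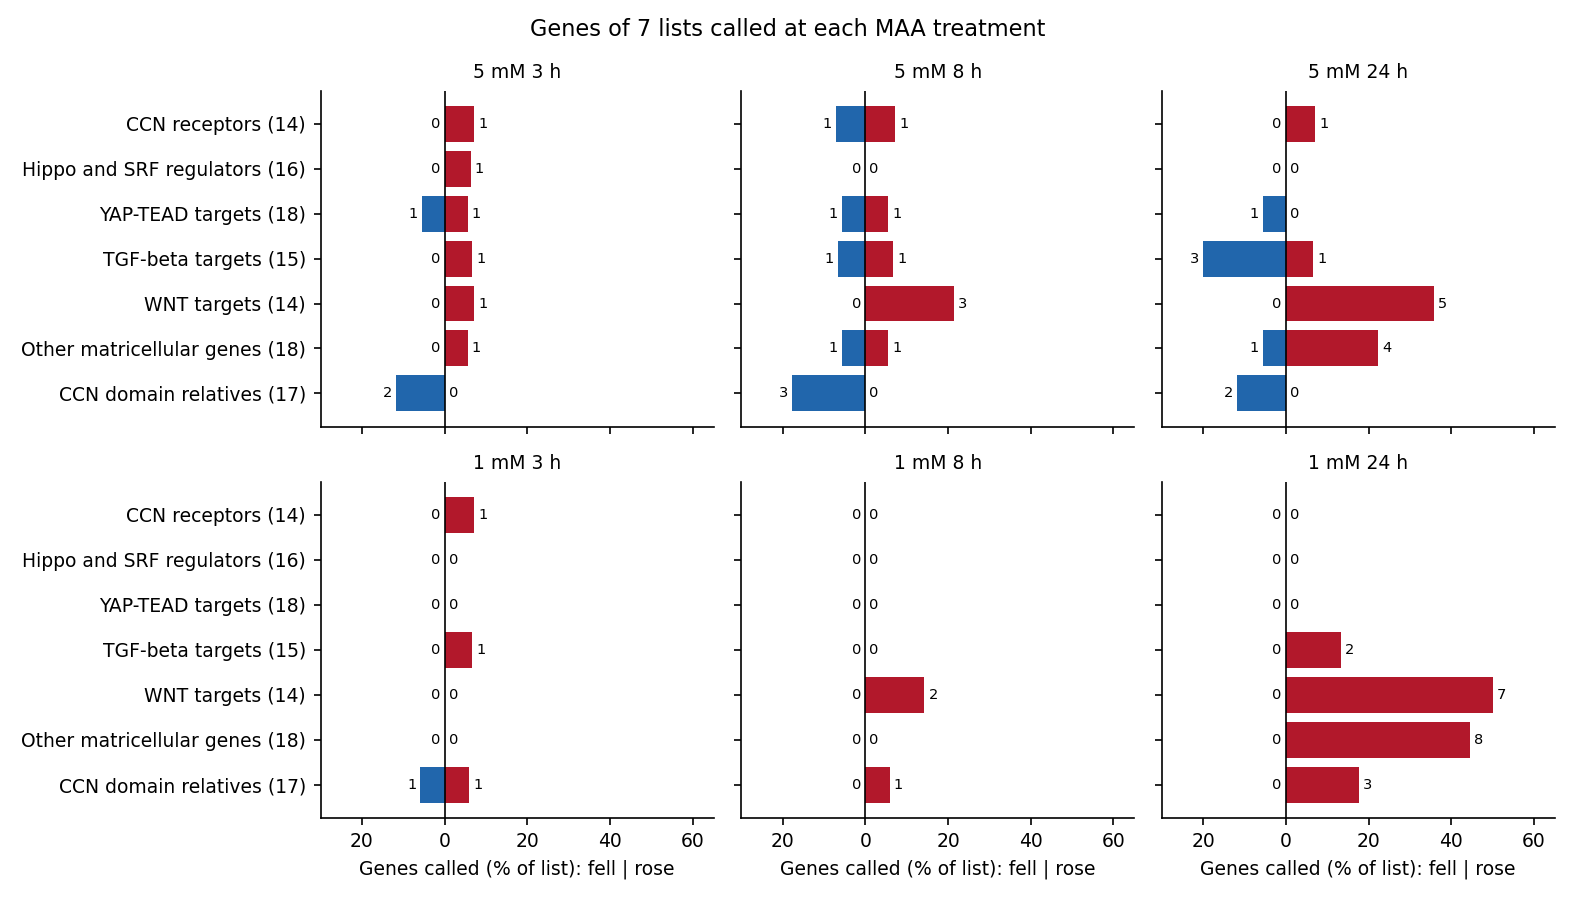
Share of the genes of each of 7 lists called at each of the 6 treatments (horizontal axis, percent of the list, up to the right in red and down to the left in blue); the vertical axis names the list with its number of genes and the digit at each bar is the count. The bars for WNT targets and other matricellular genes at 24 h are the longest, and those for Hippo and YAP-TEAD genes are short throughout.

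Of 16 genes of the Hippo and serum response factor pathways, 1 was called at any treatment. Wwtr1, which encodes the coactivator TAZ, rose 2.34-fold at 3 h of 5 mM by its brighter probe. Its other probe had a log2 ratio of 0.28 there and was not called. Some uncalled genes of this list also moved at 5 mM, by less than the fold threshold. Yap1 was lower, by log2 values of -0.55 (3 h, adjusted p by limma 0.000702) and -0.54 (8 h, 0.000555). Tead2 was lower at 8 h (-0.83, adjusted p by limma 0.00046). Stk4 was higher, by 0.68 (3 h, adjusted p by limma 0.000107) and 0.81 (8 h, 3.73e-05). Of 18 other YAP-TEAD targets, 1 was called up and 1 down at 3 h and at 8 h of 5 mM, and 0 up and 1 down at 24 h, with 0 called at 1 mM. Nuak2, a kinase, rose 2.48-fold at 3 h and 2.12-fold at 8 h, F3, the gene of tissue factor, fell 2.30-fold at 3 h, and Tgfb2 fell 2.11-fold at 8 h. Igfbp3 had a signal 3.08-fold lower at 24 h, where its MAA signal was not well above background, so this fold is uncertain. Ankrd1 and Amotl2, often read beside Cyr61 and Ctgf, were not called at 5 mM. Their log2 ratios at 3 h were -0.42 and -0.64 (adjusted p by limma 0.0138 and 0.000234). Those at 8 h were 0.78 and 0.11 (adjusted p by limma 0.000606 and 0.214). The list's medians at 5 mM were -0.09, 0.11 and 0.02.

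Of 15 targets of transforming growth factor beta, 0, 1 and 3 were called down at 3, 8 and 24 h of 5 mM, and 0 at 1 mM. Calls up in this list are not given here. The list's medians at 5 mM were 0.05, -0.21 and 0.08, beside -0.10, -0.04 and 0.03 for all probes. At 24 h of 1 mM the median was 0.29, beside -0.07. The collagen gene Col3a1 fell 3.43-fold at 8 h and 2.17-fold at 24 h, though its other probe was called only at 8 h, and Col1a2 fell 2.47-fold at 24 h. Ltbp2, a matrix protein related to the latent growth factor binding proteins, fell 2.41-fold at 24 h.

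Targets of WNT signalling were counted because Wisp1 and Wisp2 are named for it. Of 14, those called up with 5 mM numbered 1 at 3 h, 3 at 8 h and 5 at 24 h, those with 1 mM 0, 2 and 7, and 0 were called down at any treatment. Their medians at 24 h were 0.73 at 5 mM and 0.63 at 1 mM, beside 0.03 and -0.07 for all probes, and only 4 of the 14 probes were well above background on all arrays. Notum, a secreted WNT antagonist, had signals 4.30-fold higher at 3 h and 8.70-fold higher at 24 h of 5 mM. Neither control array was well above background there. Such a fold divides the brighter signal by a stand-in on each dim array. The stand-in is the higher of the probe's own signal and the lowest signal well above background. The fold is no lower limit, as dim signals can exceed that lowest one. The control mean of Rnf43 at 8 h of 5 mM, 8.29, was not well above background. Wif1, another secreted antagonist, had a signal 7.45-fold higher at 24 h of 5 mM, where neither control array was well above background. At 1 mM neither of its channels was well above background. Tcf7, a WNT-pathway transcription factor, rose 2.19-fold and 2.36-fold at 8 and 24 h of 5 mM, though its other probe was not called at 5 mM. Rnf43, a ubiquitin ligase that restrains WNT receptors, had a signal 3.02-fold higher at 8 h of 5 mM. Its control was not well above background there, and Rnf43 rose 3.39-fold at 24 h of 5 mM. Nkd1, a cytoplasmic WNT antagonist, rose 2.79-fold at 24 h of 5 mM and 3.85-fold at 24 h of 1 mM. Over the same treatments Wisp1 was called down or not called, and Wisp2 was called up at 24 h.

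Of 18 other matricellular genes, 1 was called up at 3 h of 5 mM, 1 up and 1 down at 8 h, and 4 up and 1 down at 24 h. The gene called down at 8 h, Comp, was not well above background in either channel on either array, so it was not measured there. At 1 mM, 0 were called at 3 and 8 h and 8 were called up at 24 h. Among all probes, 3.85% were called up at 24 h of 5 mM and 3.26% at 24 h of 1 mM. The list's medians at these treatments were 0.22 and 0.32, beside 0.03 and -0.07 for all probes. Only 11 of the 18 probes had a bright enough channel on every array to count as measured. Spp1, which encodes osteopontin, rose 4.74-fold at 24 h of 5 mM and 1.69-fold at 24 h of 1 mM. Postn, which encodes periostin, rose 5.53-fold and 4.57-fold at the same treatments, with its control well above background on 1 of 2 arrays at 5 mM. Tnxb, which encodes tenascin X, rose 2.31-fold and 2.94-fold at 24 h of 5 and 1 mM by its listed probe, while its other probe, with log2 ratios of 0.29 and 0.37, was not called. Sparcl1 had a signal 2.54-fold higher at 24 h of 5 mM, where its control was not well above background. Its MAA signal was well above background on 1 of 2 arrays there. Its other probe, well above background in 0 of 24 channels, was not called at that treatment. Tnc, which encodes tenascin C, was called in opposite directions: it fell 2.66-fold at 24 h of 5 mM and rose 2.20-fold at 24 h of 1 mM, and its other probe, well above background in 2 of 24 channels, had the same calls.

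Relatives that carry an insulin-like growth factor binding or von Willebrand factor type C domain numbered 17, and Igfbp3 is also among the YAP-TEAD targets. Of these, 0 were called up and 2, 3 and 2 down at 3, 8 and 24 h of 5 mM. At 1 mM, 1, 1 and 3 were called up and 1, 0 and 0 down. Among all probes, 1.74%, 2.49% and 1.77% were called down at 3, 8 and 24 h of 5 mM. The list's medians there were -0.13, -0.05 and 0.04, beside -0.10, -0.04 and 0.03 for all probes. At 24 h of 1 mM the median was 0.21, beside -0.07. Only 10 of the 17 probes had a bright enough channel on every array to count as measured. Igfbp5, an insulin-like growth factor binding protein, fell 4.19-fold at 3 h and 2.06-fold at 8 h of 5 mM and 1.72-fold at 3 h of 1 mM, and rose 2.93-fold at 24 h of 1 mM. At 24 h of 5 mM Igfbp5 had a log2 ratio of 0.79 (adjusted p by limma 0.000539), which was under the fold threshold and not called. Its other probe was well above background in 1 of 24 channels. Htra3, a secreted serine protease with the same binding domain, fell 2.30-fold and 3.02-fold at 3 and 8 h of 5 mM by its brighter probe, and its other probe had log2 ratios of 0.05 and -0.34 and was not called. Igfbp1 had signals 2.51-fold lower at 8 h and 3.00-fold lower at 24 h of 5 mM, by the stand-in described for Notum. The plain ratio at 24 h was 3.40-fold lower, with the control well above background on 1 of 2 arrays. The MAA signal of Igfbp1 was not well above background at either time, so these folds are uncertain.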

How the data were processed

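The authors hybridized pooled RNA to Agilent whole mouse genome arrays and used Feature Extraction 9.5.3.1, per the file headers, to correct background and normalize the dyes; the deposited signals are such intensity values, and the deposited value table holds log10 ratios already turned to MAA over control. Of 45018 spots per array, 1639 control spots and 124 to 208 outlier spots were left out. From these signals log2 ratios were taken, and limma 3.58.1 in R 4.3.3 fitted 1 coefficient per treatment over 12 arrays (6 residual degrees of freedom). Precision is limited by the number of arrays. Probes were named through RefSeq accessions (22072 of 41174). Each replicate is a separate pool with its own dye orientation. The p-values rest on 1 spread per probe, taken between the 2 arrays of each treatment over all 12 arrays. That spread mixes differences between pools with those of dye and slide, so it may be partly technical. The members, lists and tests were chosen with earlier results of these data known. Named list genes were those with the largest calls at 5 mM, at most 6 a list, beside uncalled genes named after their values were seen. Alternatives were normexp (offset 50) with loess, the deposited ratios, median centring, dim probes left out, outlier spots kept, replicate or slide as a block, adjusted p, each concentration alone, quantile-normalized channels, all probes of list genes, and each array left out. Steps were tested on simulated data. A result for 1 list gene is not reported here.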

Additional observations from a re-analysis of the deposited data

Results flagged for a closer look

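The differences between concentrations and between times that passed an adjusted p of 0.05 in limma are collected here as log2 values, with no explanation weighed. For 5 mM minus 1 mM, they were 1.58 at 3 h and 1.30 at 8 h for Cyr61. For Ctgf they were 1.43 at 3 h, 0.92 at 8 h and 0.87 at 24 h. For Wisp1 they were -1.01, -1.25 and -0.65 at the same times, and for Wisp2 the difference was 1.38 at 24 h. Between times at 5 mM, Cyr61 gave -1.98 for 24 h minus 8 h and -1.74 for 24 h minus 3 h, and Wisp1 gave 0.87 and 0.99 for the same pairs. Wisp2 gave 0.85 for 8 h minus 3 h, 1.57 for 24 h minus 8 h and 2.42 for 24 h minus 3 h. Between times at 1 mM, Wisp1 gave 0.63 for 24 h minus 3 h.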

How the results depend on the processing

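The members called at 5 mM, and at 8 h of 1 mM, were as many under each alternative run, and no called log2 value changed sign. The 1 mM 24 h count of 2 was 1 with normexp and loess and 1 with the arrays of the concentration alone. With slide as a random block the 1 mM 3 h count was 1 (Ctgf). The number differing between 3 h and 24 h at 1 mM, 1 in the report, was 2 among probes well above background, 2 with the replicate block, 3 with the slide block and 0 with the concentration alone; between 8 h and 24 h at 1 mM it was 1, in place of 0, among well measured probes and with the slide block. Between 3 h and 8 h at 5 mM it was 0, in place of 1, with the concentration alone. Leaving out 1 array gave 0 to 1 members called at 1 mM 3 h, 1 to 2 at 1 mM 24 h, 1 to 3 differing between concentrations at 3 h and 0 to 3 at 24 h, 0 to 1 between 3 h and 8 h at 5 mM, 0 in every case between 3 h and 24 h at 1 mM, and 0 to 2 between untreated times. Values near 0 that changed sign were not called: with the slide block, Wisp2 at 1 mM was -0.010 at 3 h, 0.0052 at 8 h and 0.015 for 8 h minus 3 h, and leaving out 1 array gave ranges from -0.27 to 0.29 and from -0.35 to 0.21 for the first and last of these. Such ranges were -0.024 to 0.19 for Cyr61 at 5 mM 24 h, -0.088 to 0.12 for its concentration difference at 24 h, -0.10 to 0.42 for Ctgf 24 h minus 3 h at 5 mM, and, in untreated cells for 24 h minus 8 h, -0.0061 to 0.12 for Wisp1 and -0.15 to 0.043 for Ctgf. Without both arrays of 1 mM 3 h, chosen after seeing the data, the counts that could be computed were as reported, but for 4 in place of 3 between concentrations at 8 h, as Wisp2 passed; it also passed there with normexp and with the slide block. The cause was not tested. The replicate number is also the dye orientation. Deviations of replicate 1 from the mean of its pair correlated between treatments at 0.075 to 0.515, with 14 of 15 correlations over 0.1. Dye and any sharing of cultures by replicate number cannot be told apart here. The replicate block gave 4 in place of 3 between concentrations at 8 h and, as above, 2 in place of 1 between 3 h and 24 h at 1 mM. It changed no other count. Nov was not well above background in any channel and stays unmeasured.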
